A study of Mus musculus with 4 samples.

Results

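In mouse oocytes of 2 groups, 47 predicted and Riken genes were read in every library of one group and were at least 8 times lower, often at or near 0, in the other. Predicted genes carry a Gm number, and Riken genes carry a clone name that ends in Rik. The 47 were chosen by a rule on CPM, the matrix count of a gene divided by the total of its library and multiplied by 1000000. A gene entered when both libraries of one group held at least 3 CPM and the lower of them was at least 8 times the higher library of the other group. Of 30693 predicted and Riken symbols among 55335 genes, 29 entered as higher and 18 as lower in the mutant oocytes. The rule set 6 symbols aside, of which 5 met the same thresholds. Because this contrast chose the genes, their difference between the groups is described and not tested.

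Gm symbols are provisional names for genes predicted from the genome sequence, and Rik symbols come from mouse cDNA clones sequenced at RIKEN. Many of them are long non-coding RNAs, which are transcripts without a long reading frame. Others are processed pseudogenes, which arise when a messenger RNA is copied back into DNA and inserted elsewhere, so they lack introns and can resemble their source gene base for base. A short read from such a copy and one from its source can then be identical, and the count of either gene depends on where the read is placed. Growing oocytes transcribe many such elements, and a fully grown oocyte lives on stored maternal RNA.

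The series held 2 control and 2 mutant libraries of C57BL/6 mouse oocytes, which the labels also call MII_WT and MII_Mut, amplified with Smart-Seq2, a full-length cDNA method for very little RNA. For the study, mice named Ezh2Long and Ezh2Short were made by mutating a base where exon 3 of *Ezh2* can be spliced in alternative ways, and the label of the mutants does not say which form they kept. *Ezh2* encodes the enzyme of Polycomb repressive complex 2, which methylates histone H3. The labels state neither the age of the animals nor whether libraries came from separate animals or how many oocytes each held, so a p-value here speaks of the spread among these libraries alone, which may be technical.

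Library totals lay between 25090032 and 26617816 matrix counts. *Ezh2* was at 292 and 240.3 CPM in controls 1 and 2 and at 186 and 223 CPM in mutants 1 and 2 (log2 fold change -0.47, edgeR quasi-likelihood test, adjusted p = 0.219), so its level did not check the labels. All 15 oocyte markers had counts in all 4 libraries, with sums from 36421 to 37597 CPM. The 17 cumulus and granulosa markers summed to 69.8 and 55.8 CPM in the controls, 422 CPM in mutant 1 and 48.0 CPM in mutant 2. *Amh*, *Amhr2* and *Foxl2* were at 0 in all libraries but mutant 1, with 13, 11 and 1 counts there. *Cyp19a1* went the other way, at 31.9 and 42.6 CPM in the controls, 17.3 CPM in mutant 1 and 23.6 CPM in mutant 2. *Cd44* was highest in mutant 2, at 2.07 CPM. The 12 leukocyte markers summed to 3.79 and 5.26 CPM in the controls, 14.8 CPM in mutant 1 and 169 CPM in mutant 2. *Cd3e*, *Cd3g*, *Coro1a* and *Nkg7* were at 0 in all libraries but mutant 2, where *Cd3e* had 1 count. *Cd74* and *Lyz2* were highest in mutant 1 instead, at 2.86 and 8.50 CPM, against 1.02 and 3.84 CPM in mutant 2. The part of these cells in the counts of the switching genes was not tested, and in bulk samples fewer cells of a type and less RNA per cell cannot be told apart.

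The 29 higher genes together held 15.2 and 16.4 CPM in the control libraries and 453 and 503 CPM in the mutant libraries. The 18 lower genes together held 869 and 837 CPM in the controls, against 46 and 51.9 CPM in the mutants. The libraries of a group were thus close to each other in both sums. A large part of the lower sum came from 1 place, where *Gm47180* and *Gm47179* overlap. *Gm47180* held 281 and 242 CPM and *Gm47179* 241 and 210 CPM in controls 1 and 2. Among the 1233 predicted and Riken genes that reached 3 CPM in both libraries of a group, 2.35% met the thresholds as higher and 1.46% as lower. Among 8254 genes with other symbols the shares were 0.509% and 0.254%, or 42 and 21 genes, and over all 9493 genes at 3 CPM, the 6 set aside included, they were 0.790% and 0.421%. In the edgeR fit over 15493 genes 1.77% passed as higher and 1.98% as lower at an adjusted p under 0.05. Among its 3190 predicted and Riken genes 1.88% passed as higher and 2.95% as lower, 4.83% together. Of the members, 29 of 29 higher and 17 of 18 lower members passed, from which nothing is read because the rule used the same contrast.

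**Figure D1:**
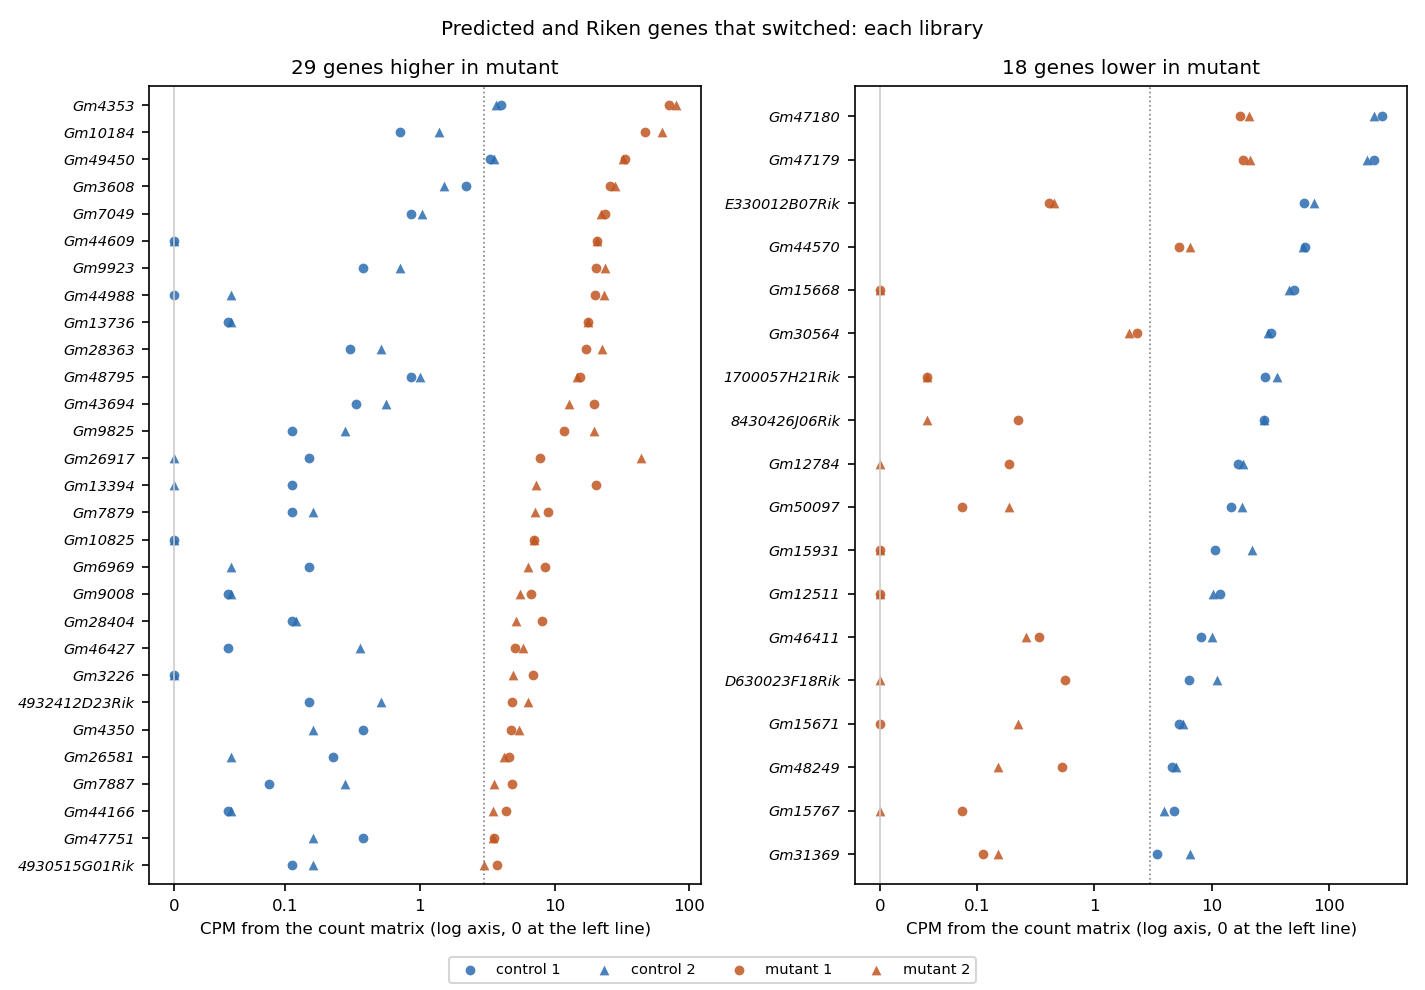
CPM of each of the 47 genes in every library on a log axis, with circles and triangles for replicates 1 and 2 and a dotted line at 3 CPM. Among the 29 genes on the left the mutant libraries stand to the right of the controls, and among the 18 on the right they stand to the left. Replicates lie close together for most genes, and among the mutant libraries of the higher genes Gm26917 and Gm13394 are the widest pairs. Near 0 the controls spread more on this axis.

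Genes lay close to the limit of 8 on both sides of it. Just inside it among the higher genes were *Gm49450*, *Gm47751* and *4932412D23Rik*, whose lower mutant library exceeded the higher control library 9.09-fold, 9.21-fold and 9.37-fold. Just outside were *Gm15459*, *Gm47583* and *Gm16186* at 7.26-fold, 6.23-fold and 6.01-fold. Among the lower genes *Gm48249*, *Gm44570* and *Gm47179* lay just inside at 8.70-fold, 9.07-fold and 9.90-fold. Just outside were *Gm48778*, *Gm34121* and *Gm33700* at 7.52-fold, 7.43-fold and 7.13-fold. Of these 6 just outside, 3 are annotated as pseudogenes, 2 as processed transcripts and 1 as a locus to be experimentally verified.

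The directions differed in the kinds of gene they held. Of the 29 higher genes, GENCODE M21 annotated 13 as pseudogenes, 12 of them processed, 9 as long non-coding RNAs, 6 as protein-coding and 1 as a locus to be experimentally verified. Of the 18 lower genes it annotated 14 as long non-coding RNAs, 2 as pseudogenes, 1 as protein-coding and 1 as a locus to be verified. Over all 1233 predicted and Riken genes at 3 CPM, 16.1% were pseudogenes and 54.5% long non-coding RNAs. A single exon made up 18 of the 29 higher genes and 1 of the 18 lower genes. RefSeq lists 4 of the 6 protein-coding members among the higher genes, *Gm10184*, *Gm4353*, *Gm7879* and *Gm9008*, as pseudogenes.

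Near-identical copies elsewhere were more frequent among the higher genes than among the lower genes. Longest transcripts were compared with all GENCODE M21 transcripts of genes elsewhere, and a gene counted as copied where at least 50% of its bases matched another gene at 95% identity or more. Of the 29 higher genes 22 were copied (75.9%), against 1 of the 18 lower genes (5.56%) and 169 of the 1186 other predicted and Riken genes at 3 CPM (14.2%). Of the genes that GENCODE does not annotate as pseudogenes, 11 of 16 higher genes were copied (68.8%), against 89 of 1002 others (8.88%). These 11 are not all separate places. They include *Gm10184*, *Gm4353*, *Gm7879* and *Gm9008*, which RefSeq lists as pseudogenes. *Gm44166* and *Gm48795* share 515 and 819 exon bases with the members *Gm9008* and *Gm7049*, and *Gm10825* and *Gm26581* match each other only. Among processed pseudogenes 10 of 12 members were copied, against 47 of 106 others (44.3%). Seen from the other side, 22 of the 192 copied genes met the rule as higher (11.5%) and 1 as lower (0.521%). Of 1041 genes without a copy 7 met it as higher (0.672%) and 17 as lower (1.63%). Among switching genes with other symbols that GENCODE M21 holds, 8 of 41 higher and 3 of 21 lower were copied (19.5% and 14.3%). The counts used by the rule depend, for copied genes, on where reads were placed. Having a copy and meeting the rule are therefore not independent, and nothing is read from these shares.

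**Figure D2:**
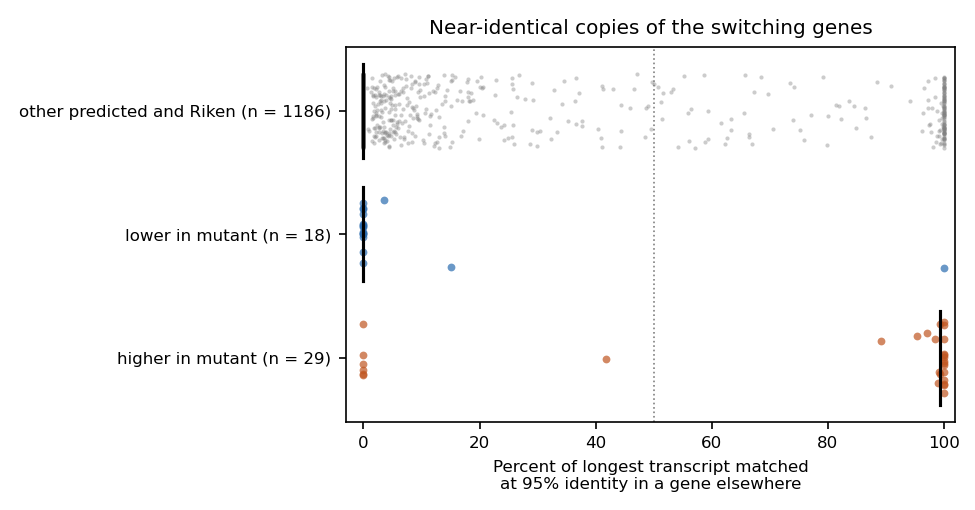
Percent of each gene's longest transcript that matches a gene elsewhere at 95% identity, one point per gene, for the 29 higher, 18 lower and 1186 other predicted and Riken genes at 3 CPM. Black bars mark medians (99.3% for the higher genes and 0 for both other sets), and the dotted line marks 50%. Most higher genes sit near full length, and all lower genes but 1 sit below the line.

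Of the 22 copied genes, 20 matched a gene annotated as protein-coding, 18 different genes in all, and the best of these is called the matching gene. Over the 17 matching genes that could be tested the median log2 fold change was -0.03. In the edgeR test 1 rose (*Tuba1b*) and 3 fell (*Kpna2*, *Srp9* and *Tuba1c*), and of all tested genes 3.75% passed in either direction. The counts of matching genes depend on how reads were placed between them and members chosen by this contrast. *Tuba1b* also shares 426 exon bases with the member *Gm49450*. Nothing is therefore read from these calls against the share over all tested genes.

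*Gm10184* (chr17:89908462-89910449, minus strand, mm10) matched *Kpna2*, which encodes an importin that carries proteins into the nucleus, over 1968 bases with 2 differences. Both differences lie in the stretch of 100 bases shown here from the coding part of *Kpna2* (*Gm10184* at chr17:89909572-89909671), 5′ to 3′ with the differing bases in capitals, to show how little separates the genes. This and the next transcript stretches come from GENCODE M21. The differences are A51G and C96T, written as the *Kpna2* base, the position counted from 1 at the 5′ end of the stretch, and the *Gm10184* base.
Gm10184: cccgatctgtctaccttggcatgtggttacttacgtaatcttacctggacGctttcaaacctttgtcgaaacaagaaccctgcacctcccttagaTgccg
Kpna2: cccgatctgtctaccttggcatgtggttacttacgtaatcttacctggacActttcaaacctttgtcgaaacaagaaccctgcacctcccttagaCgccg
*Gm10184* was at 0.714 and 1.39 CPM in controls 1 and 2 and at 47.2 and 62.9 CPM in mutants 1 and 2. Its mean was 52.2-fold higher in the mutants. *Kpna2* was at 519 and 520.3 CPM in the controls, against 299.7 and 335 CPM in the mutants (log2 fold change -0.80, SE 0.15, edgeR adjusted p = 0.0468). *Gm10184* was thus higher and its match lower in both mutants, and the summed counts of *Gm10184*, *Kpna2* and 3 further copies had a log2 ratio of -0.48. The call of *Kpna2* was lost without control 1 (adjusted p = 0.324), without control 2 (0.293), without mutant 1 (0.0697) and with a replicate block (0.0582), all in edgeR. In the RSEM expected counts, which divide reads that fit several genes between them, *Gm10184* had 5.42, 15.8, 22.1 and 26.6 counts in the 4 libraries, against 19, 35, 1255 and 1672 matrix counts. RSEM put *Kpna2* at 559 and 560.5 CPM in the controls, against 101 and 126 CPM in the mutants. The RSEM sum of the 5 genes overlapped between the groups, with a log2 ratio of -0.10. That sum was at 567 and 569 CPM in the controls, against 486 and 575 CPM in the mutants. In the mutants most of it thus lay on the 3 further copies, *Gm10259*, *Gm12919* and *Gm13310*.

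*Gm13736* (chr2:87526145-87526397, plus strand) matched *Srp9*, which encodes a subunit of the signal recognition particle, over all of its 253 bases with 0 differences. The first 100 bases of *Gm13736* (chr2:87526145-87526244) are shown because *Srp9* has the same letters there, so a read inside them is the same for both genes.
Gm13736 and Srp9: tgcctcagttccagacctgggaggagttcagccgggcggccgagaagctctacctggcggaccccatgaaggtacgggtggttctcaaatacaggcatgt
*Gm13736* had 1 count in each control and 474 and 473 counts in the mutants. The ratio of pooled CPM was 461, with a 95% counting interval of 127 to 3808. *Srp9* was at 55.4 and 61.4 CPM in the controls, against 26.4 and 22.6 CPM in the mutants (log2 fold change -1.34, SE 0.17, edgeR adjusted p = 0.0161). In edgeR that call was lost without control 1 (adjusted p = 0.203) and without control 2 (0.195). The sum of the pair was at 55.4 and 61.5 CPM in the controls, against 44.3 and 40.4 CPM in the mutants, a log2 ratio of -0.47. RSEM gave *Gm13736* 0 counts in all 4 libraries.

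*Gm9923* (chr10:72309321-72311156, plus strand) matched *Hbs1l*, which encodes a GTPase that releases stalled ribosomes, over 1836 bases with 1 difference. The stretch that holds it (*Gm9923* at chr10:72310595-72310694) is shown with the differing base in capitals, A51G counted from the 5′ end with the *Hbs1l* base first.
Gm9923: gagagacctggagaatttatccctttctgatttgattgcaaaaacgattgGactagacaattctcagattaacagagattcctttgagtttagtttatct
Hbs1l: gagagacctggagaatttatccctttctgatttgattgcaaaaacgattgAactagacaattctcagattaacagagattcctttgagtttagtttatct
*Gm9923* was at 0.376 and 0.717 CPM in the controls, against 20.3 and 23.6 CPM in the mutants, 40.2-fold higher. *Hbs1l* was at 94.1 and 105 CPM in the controls, against 79.7 and 82.0 CPM in the mutants and did not pass (log2 fold change -0.38, edgeR adjusted p = 0.177). Their sum overlapped between the groups, at 94.5 and 105 CPM against 99.98 and 106 CPM. RSEM gave *Gm9923* 34.4 and 21.9 counts in the controls, against 138 and 209.5 in the mutants, higher in the mutants as well but under the thresholds.

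*Gm4353* (chr7:116082863-116084635, minus strand) had the most matrix counts of the higher genes and matched *Nup35*, a nuclear pore gene, over 1547 bases with 6 differences. In the stretch shown from the spliced transcripts the only difference is A51G, the *Nup35* base first.
Gm4353: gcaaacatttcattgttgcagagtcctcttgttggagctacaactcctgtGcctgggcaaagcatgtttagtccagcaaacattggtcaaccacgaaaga
Nup35: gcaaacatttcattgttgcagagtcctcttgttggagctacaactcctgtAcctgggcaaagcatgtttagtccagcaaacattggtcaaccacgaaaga
*Gm4353* was at 3.98 and 3.67 CPM in the controls, against 70.6 and 79.7 CPM in the mutants, 19.6-fold higher. *Nup35* was at 336 and 316 CPM in the controls, against 407 and 464 CPM in the mutants (log2 fold change 0.33, edgeR adjusted p = 0.286). The RSEM counts put more reads on *Gm4353* than the matrix did, 496 and 359 in the controls, against 6197 and 7232 in the mutants, and fewer on *Nup35*, which was at 327 and 314 CPM and at 265 and 297 CPM there, so the direction of *Nup35* turned (log2 fold change -0.29, edgeR adjusted p = 0.33). On the length-corrected TPM scale of the same tables *Gm4353* reached 547 and 672 in the mutants.

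*Capza1* and the alpha tubulins, which build the cytoskeleton, matched further members. *Gm3608* (chr1:105455971-105458829) matched *Capza1*, which encodes a subunit of the actin capping protein, over 2859 aligned bases with 8 mismatched bases, gaps not counted. *Gm3608* was at 2.22 and 1.51 CPM in the controls, against 25.8 and 28.2 CPM in the mutants, 14.5-fold higher. *Capza1* was at 132 and 108 CPM in the controls, against 57.3 and 72.7 CPM in the mutants, and did not pass (log2 fold change -0.98, SE 0.21, edgeR adjusted p = 0.0607). It passed without mutant 2 (adjusted p = 0.0397) and with a replicate block (0.042), as well as in DESeq2 (0.00144) and without the filter on low counts (0.0149). As with *Kpna2* and *Srp9* the sum was lower in both mutants, with a log2 ratio of -0.41. By RSEM the sum overlapped between the groups, at 188 and 155 CPM against 129 and 165 CPM, with a log2 ratio of -0.22.

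*Gm49450* (chr15:98932137-98953551), annotated as protein-coding, spans the alpha-tubulin genes *Tuba1b* and *Tuba1a* and shares 426 and 473 exon bases with them. Elsewhere it matched *Tuba1c* best, another alpha-tubulin gene, over 801 bases with 4 differences. *Gm49450* was at 3.31 and 3.55 CPM in the controls, against 33.1 and 32.2 CPM in the mutants, and RSEM gave it 0 counts in all libraries. *Tuba1b* was at 4.62 and 4.54 CPM in the controls and rose to 27.7 and 30.8 CPM in the mutants (log2 fold change 2.59, SE 0.25, edgeR adjusted p = 0.00565, and 0.164 and 0.168 without controls 1 and 2). *Tuba1a* was at 0.338 and 0 CPM in the controls, against 15.2 and 4.14 CPM in the mutants, and did not pass (log2 fold change 5.64, SE 1.18, edgeR adjusted p = 0.0567). *Tuba1a* passed with the replicate block (edgeR adjusted p = 0.00124), without the filter on low counts (0.00457), without mutant 1 (0.000262) and without mutant 2 (0.0118). *Tuba1c* was at 62.6 and 40.1 CPM in the controls and fell to 20.1 and 13.6 CPM in the mutants (log2 fold change -1.72, SE 0.31, edgeR adjusted p = 0.041). The edgeR call of *Tuba1c* was lost without control 1 (adjusted p = 0.303), control 2 (0.173) or mutant 2 (0.0554), and on library totals without TMM scaling (0.0562). The summed counts of *Gm49450*, *Tuba1c* and 7 further copies overlapped between the groups, with a log2 ratio of 0.03. With *Tuba1b* and *Tuba1a* added the sum was at 71.1 and 48.9 CPM in the controls, against 104 and 86.6 CPM in the mutants, groups apart with a log2 ratio of 0.67.

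*Me1*, which encodes the cytosolic malic enzyme that makes NADPH, matched a pair of overlapping members on chromosome 13. *Gm7049* (chr13:62813076-62814787, plus strand) is a processed pseudogene, and *Gm48795* (chr13:62813969-62815523, minus strand) shares 819 exon bases with it on the other strand. *Gm7049* was at 0.864 and 1.04 CPM in the controls, against 23.7 and 22.2 CPM in the mutants, and *Gm48795* was at 0.864 and 0.996 CPM and at 15.5 and 14.7 CPM. *Me1* was at 1124 and 1222 CPM in the controls, against 1172 and 1271 CPM in the mutants and overlapped between the groups (log2 fold change -0.03, edgeR adjusted p = 0.939). *Gm48795* had 25.6 and 30.9 RSEM counts in the controls, against 8145 and 8865 in the mutants, against 412 and 392 matrix counts in the mutants. *Me1* was then at 925 and 1005 CPM in the mutants by RSEM, below its control values of 1148 and 1255 CPM.

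A second overlapping pair matched *Rnf26*, which encodes a ubiquitin ligase of the endoplasmic reticulum. *Gm9008* and *Gm44166* lie on opposite strands of chromosome 6 at 76495432 to 76497784 and at 76496082 to 76497524 and share 515 exon bases, all of *Gm44166*. Both genes had 1 count in each control. *Gm9008* had 177 and 148 counts in the mutants, a pooled ratio of 158 (counting interval from 43.4 to 1311), and *Gm44166* had 116 and 92. RSEM gave *Gm44166* 0 counts everywhere and *Gm9008* 296 and 238 in the mutants. The sources used here do not give the strand setting of the counting, and without it the reads of these overlapping members cannot be told apart.

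Other genes with a copy were of several kinds. *Gm6969*, matched by the respiratory chain gene *Cox7a2l*, had 4 and 1 counts in the controls, against 224 and 170 in the mutants. *Gm7887*, matched by the nuclear protein gene *Pcnp* with 2 differences in 537 bases, had 2 and 7 counts and then 129 and 94. Their matching genes did not pass (log2 fold changes -0.35 and -0.24, edgeR adjusted p = 0.369 and 0.509), and both sums overlapped between the groups. *Gm4350* matched the oocyte gene *Oog3* and was at 0.376 and 0.159 CPM in the controls, against 4.74 and 5.42 CPM in the mutants. *Oog3* itself, at 2139 and 2246 CPM in the controls, against 3253 and 3947 CPM in the mutants, did not pass (log2 fold change 0.63, edgeR adjusted p = 0.109), but passed in DESeq2 (adjusted p = 0.0116) and without mutant 1 (0.0185).

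Some sums stayed high in the mutants. *Gm44609*, a match of the ribosomal protein gene *Rpl23a*, had 0 counts in both controls and 551 and 545 in the mutants, at least 355-fold higher. RSEM gave it 0 counts in the controls too, and 61 and 53.2 in the mutants. The sum of its 13 genes was at 2.93 and 3.23 CPM in the controls, against 47.3 and 26.7 CPM in the mutants, a log2 ratio of 3.59, and *Rpl23a* itself was at 1.05 and 0.359 CPM in the controls, against 11 and 1.81 CPM in the mutants, highest in mutant 1. *Gm28363* was at 0.301 and 0.518 CPM in the controls, against 17.2 and 22.6 CPM in the mutants, and its sum with the predicted genes *Gm28168* and *Gm28358* had a log2 ratio of 2.23. With RSEM that sum had a log2 ratio of -0.30, since RSEM gave *Gm28363* only 2 counts in each mutant. *Gm10825* and *Gm26581*, long non-coding RNAs 185642 bases apart on chromosome 10, are copies of each other with 16 mismatched bases in 4480 aligned bases, gaps not counted. *Gm10825* had 0 counts in the controls and 188 in each mutant, and *Gm26581* had 6 and 1 counts and then 122 and 112. In RSEM they had 18.5 and 23.7 and 24.5 and 23.3 counts in the mutants. Neither had another annotated copy, and their matrix sum was at 0.225 and 0.0399 CPM in the controls, against 11.7 and 11.3 CPM in the mutants.

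*Gm43694*, a locus to be experimentally verified, was at 0.338 and 0.558 CPM in the controls, against 19.6 and 12.9 CPM in the mutants in the matrix. RSEM gave it 140 and 195 counts in the controls, against 301 and 195 in the mutants, so the groups overlapped in that counting. The sum of its 20 genes, among them the olfactory receptor gene *Olfr624*, overlapped as well, with a log2 ratio of 0.09.

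Over the 22 copied genes the log2 ratio of the sum had a median of 0.45 and lay between -0.48 and 6.43. It was within 0.5 of 0 for 13 genes and within 1 for 17, and above 1 for 5. The groups overlapped for 8 sums, and both mutants were above the controls for 11 and below for 3, where *Gm10825* and *Gm26581* share 1 sum that is counted for each. Every sum holds the counts by which its member was chosen, so nothing is read from this count against the 33.1% above and 21.5% below over all tested genes. With RSEM the median was 0.13, with 12 sums within 0.5 of 0. Sums cover annotated copies only, and how reads were placed between copies was not tested.

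**Figure D3:**
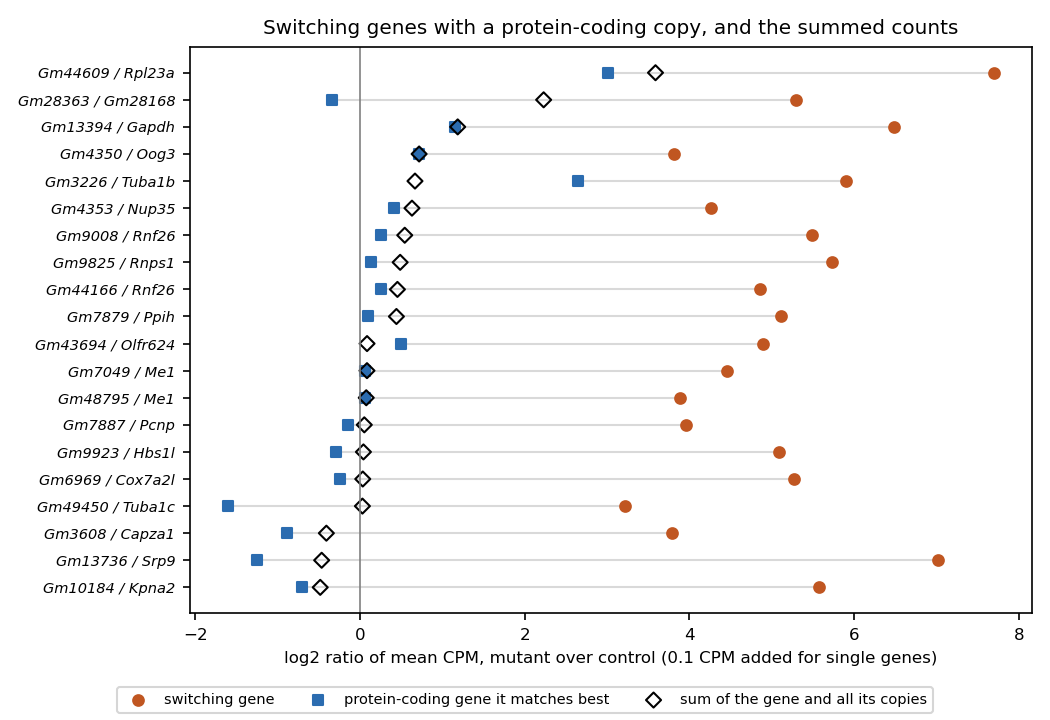
Log2 ratio of mean CPM in the mutants over the controls for 20 copied genes (circles), the protein-coding gene each matches best (squares) and the sum of the gene and all its copies (diamonds). Single genes have 0.1 CPM added to each mean, so circles with 0 counts in the controls depend on it. All circles lie above 3, and most squares and diamonds lie near 0. The diamonds of Gm10184, Gm13736 and Gm3608 lie below 0, and those of Gm44609, Gm28363 and Gm13394 above 1.

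Replicates of the higher genes were close, with a median ratio between the mutant libraries of 1.18 for copied genes and 1.25 for the 7 others. The exceptions, singled out after their values were seen, were *Gm26917* and *Gm13394*. *Gm13394*, a copy of the glycolysis gene *Gapdh*, had 3 and 0 counts in the controls, against 541 and 195 in the mutants, a pooled ratio of 239 (counting interval from 81.3 to 1160). *Gapdh* was at 91.0 and 93.5 CPM in the controls, 329 CPM in mutant 1 and 81.0 CPM in mutant 2 (log2 fold change 1.04, edgeR adjusted p = 0.309, and -0.25 without mutant 1). Both *Gm13394* and *Gapdh* were highest in mutant 1, the library with the largest sum of cumulus and granulosa markers. *Gm26917* (chr17:39843013-39846341), a long non-coding RNA 12 bases from the ribosomal RNA gene *CT010467.1*, had 4 and 0 counts in the controls, 208 in mutant 1 and 1161 in mutant 2, the library with the largest sum of leukocyte markers. *CT010467.1* was at 4041 and 4349 CPM in the controls, against 6174 and 3264 CPM in the mutants, so its higher mutant was the other library. The part of other cell types in these values was not tested.

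The higher genes without a copy at 95% numbered 7, and 6 of them met the rule with RSEM too. At 90% identity *Gm44988* and *Gm46427* among them matched genes elsewhere over 100% and 99.7% of their bases. *Gm44988*, a processed pseudogene (chr6:130939248-130940408), had 0 and 1 counts in the controls, against 529 and 619 in the mutants, a pooled ratio of 1117 (counting interval from 200.004 to 44140). RSEM gave nearly the same counts, 0 and 1 against 581 and 649. *4932412D23Rik* (chr16:42725702-42875762, minus strand) had 4 and 13 counts in the controls, against 129 and 169 in the mutants. It lies 119 bases from *Zbtb20*, which encodes a zinc finger repressor and is transcribed from the other strand. *Zbtb20* rose from 14.8 and 16.9 CPM to 45.6 and 48.2 CPM (log2 fold change 1.48, SE 0.19, edgeR adjusted p = 0.0161), a call lost without control 1 (adjusted p = 0.219) and control 2 (0.215). *Gm28404*, a transcript inside an intron, had 3 counts in each control and 215 and 138 in the mutants, and 40 and 18 in the mutants by RSEM. It lies 105297 bases from *Gm3608*. *Gm47751* had 10 and 4 counts in the controls, against 94 and 92 in the mutants.

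The lower genes were mostly spliced transcripts without a copy, and 9 of 18 met the rule with RSEM. *Gm47180* (chr9:124338979-124347160, plus strand), a transcribed unprocessed pseudogene, had the most matrix counts of the 47 and was at 281 and 242 CPM in the controls, against 17.4 and 20.6 CPM in the mutants. By RSEM it had 4949 and 3984 counts in the controls, against 258 and 265 in the mutants, and on the TPM scale it was at 515 and 445 and at 32.6 and 34.5. *Gm47179* lies on the other strand of the same place, shares 338 exon bases with it, and was at 241 and 210.0 CPM and at 18.4 and 21.2 CPM. RSEM gave *Gm47179* only 2 and 1 counts in the controls, against 43 and 15 in the mutants, the opposite direction. *Gm47180* and *Gm47179* were thus both lower in the matrix, and the direction of *Gm47179* depended on the counting.

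Around this pair the neighbours went both ways. *Gm47182*, an unprocessed pseudogene 22057 bases from *Gm47180*, fell from 72.8 and 81.1 CPM to 35.7 and 29.7 CPM (log2 fold change -1.33, SE 0.17, edgeR adjusted p = 0.0152). RSEM gave *Gm47182* 96 and 54 counts in the controls, against 30 and 40 in the mutants. *Gm47181*, a long non-coding RNA that overlaps *Gm47180* in part on the other strand, rose from 2.82 and 1.63 CPM to 12.6 and 12.0 CPM (log2 fold change 2.36, SE 0.40, edgeR adjusted p = 0.0365), and RSEM gave it 0 counts. This edgeR call was lost without control 1 (adjusted p = 0.203) and control 2 (0.282). *Nlrp4g*, annotated as a transcribed pseudogene of the NLRP4 family, lies 1712 bases from *Gm47180* and was at 2189 and 2315 CPM in the controls, against 1090 and 1455 CPM in the mutants, which did not pass (log2 fold change -0.91, edgeR adjusted p = 0.0648) but passed in DESeq2 (0.00029), without the filter on low counts (0.0223) and without mutant 2 (0.0231).

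*E330012B07Rik* and *Gm15767* lie 34242 bases apart on chromosome 6, on opposite strands, and both were lower. *E330012B07Rik* (chr6:147180244-147208285) was at 60.8 and 74.4 CPM in the controls, against 0.414 and 0.451 CPM in the mutants, 156-fold lower, and RSEM gave close counts of 1425, 1702, 0 and 11. *Gm15767* (chr6:147242527-147243801) had 128 and 98 counts in the controls, against 2 and 0 in the mutants, a pooled ratio of 116 (counting interval from 31.8 to 965). *Pthlh*, which encodes parathyroid hormone-related protein and lies 8300 bases from *Gm15767*, fell from 12.6 and 20.8 CPM to 1.84 and 2.60 CPM (log2 fold change -2.98, SE 0.38, edgeR adjusted p = 0.0161). Its edgeR call was lost without control 1 (adjusted p = 0.178) and control 2 (0.238). The neighbouring members and *Pthlh* thus had lower counts in both mutants.
The start regions of both members are shown because they moved together, from 250 bases before to 50 bases after the RefSeq start in GRCm38.p6, 5′ to 3′ on the strand of the gene. The motifs TATAAA (the TATA box), TAATTG (bound by oocyte homeodomain factors) and CACGTG (an E-box) were searched on both strands, with no overlap among the matches shown, and matches are in capitals. *E330012B07Rik* (chr6:147179991-147180290) holds TATAAA on the other strand and TAATTG on its own, and *Gm15767* (chr6:147243752-147244051) holds none of the 3.
E330012B07Rik: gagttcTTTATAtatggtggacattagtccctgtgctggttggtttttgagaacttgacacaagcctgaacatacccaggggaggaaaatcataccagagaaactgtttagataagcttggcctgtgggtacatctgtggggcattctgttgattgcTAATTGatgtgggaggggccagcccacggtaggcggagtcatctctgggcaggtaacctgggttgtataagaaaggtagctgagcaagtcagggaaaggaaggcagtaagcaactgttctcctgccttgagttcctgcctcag
Gm15767: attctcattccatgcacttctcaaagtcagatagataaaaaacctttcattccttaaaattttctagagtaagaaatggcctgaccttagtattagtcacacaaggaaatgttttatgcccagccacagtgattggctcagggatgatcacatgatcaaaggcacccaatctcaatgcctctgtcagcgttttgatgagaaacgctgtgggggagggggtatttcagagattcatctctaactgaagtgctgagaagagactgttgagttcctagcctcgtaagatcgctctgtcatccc
Of all 32851 mouse windows of this length, 13.6% hold TATAAA, 8.0% TAATTG and 7.15% CACGTG on either strand. The windows share no match, and RefSeq windows were found for 13 of the 47 members.

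*Gm44570* and *Gm48249* are antisense genes that were lower beside a lower gene on the other strand. *Gm44570* (chr7:81610109-81614166, plus strand) shares 525 exon bases with *Homer2*, which encodes a scaffold protein of synapses and calcium signalling. *Gm44570* was at 62.0 and 59.7 CPM in the controls, against 5.31 and 6.58 CPM in the mutants, 10.2-fold lower. *Homer2* fell from 134 and 131 CPM to 8.99 and 10.2 CPM (log2 fold change -3.88, SE 0.19, edgeR adjusted p = 0.000467). *Gm48249* (chr10:20267049-20286647, minus strand) shares 332 exon bases with *Map7*, which encodes a microtubule-associated protein, and was at 4.58 and 4.94 CPM in the controls, against 0.527 and 0.15 CPM in the mutants. *Map7* fell from 61.1 and 65.2 CPM to 3.57 and 3.08 CPM (log2 fold change -4.34, SE 0.21, edgeR adjusted p = 0.000467). RSEM gave *Gm44570* and *Gm48249* 0 counts in every library, while *Homer2* and *Map7* passed with RSEM as well (edgeR adjusted p = 0.000457 and 0.000461). The reads in these antisense genes and those of their partners cannot be told apart without strand.

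Other lower genes stood beside genes that changed without sharing exons with them. *8430426J06Rik* (chr15:81242657-81312866, minus strand) lies 6045 bases from *Slc25a17*, a peroxisomal carrier gene on the same strand. *8430426J06Rik* was at 27.6 and 27.9 CPM in the controls, against 0.226 and 0.0376 CPM in the mutants, 211-fold lower. *Slc25a17* fell from 253 and 203 CPM to 6.21 and 4.21 CPM (log2 fold change -5.55, SE 0.27, edgeR adjusted p = 0.000467). *Slc25a17*, *Homer2* and *Map7* passed with every library left out in turn, with an edgeR adjusted p of at most 0.035. *Gm31369*, 804054 bases away on the same chromosome, had 91 and 164 counts in the controls, against 3 and 4 in the mutants.

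On chromosome 1, *Gm15668* (chr1:67249200-67323609, plus strand) had 1336 and 1148 counts in the controls and 0 in both mutants, at least 850.1-fold lower. RSEM gave it 92 and 71 counts in the controls and 0 in the mutants. *Cps1*, the first enzyme gene of the urea cycle, lies 17941 bases away and fell from 14.4 and 14.9 CPM to 0.376 and 0.865 CPM (log2 fold change -4.63, SE 0.49, edgeR adjusted p = 0.00848, and 0.200 and 0.191 without controls 1 and 2). *Gm15671*, 700634 bases further, had 141 and 144 counts in the controls, against 0 and 6 in the mutants. *Erbb4*, a neuregulin receptor gene 6423 bases from it on the other strand, rose from 5.22 and 5.18 CPM to 14.8 and 14.4 CPM (log2 fold change 1.40, SE 0.27, edgeR adjusted p = 0.0485). The edgeR call of *Erbb4* was lost without control 1 (adjusted p = 0.32), control 2 (0.332) or mutant 2 (0.0627) and with RSEM (0.0585) or library totals (0.0556). Along this stretch the lower predicted genes thus had neighbours that changed in opposite directions. *D630023F18Rik*, annotated as protein-coding, had 171 and 277 counts in the controls, against 15 and 0 in the mutants, and shares 383 exon bases with *Gm28845* on the same strand. *Gm28845* fell from 77 and 103 counts to 4 and 0 (log2 fold change -5.54, SE 1.01, edgeR adjusted p = 0.0415, and 0.32 and 0.332 without controls 1 and 2).

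**Figure D4:**
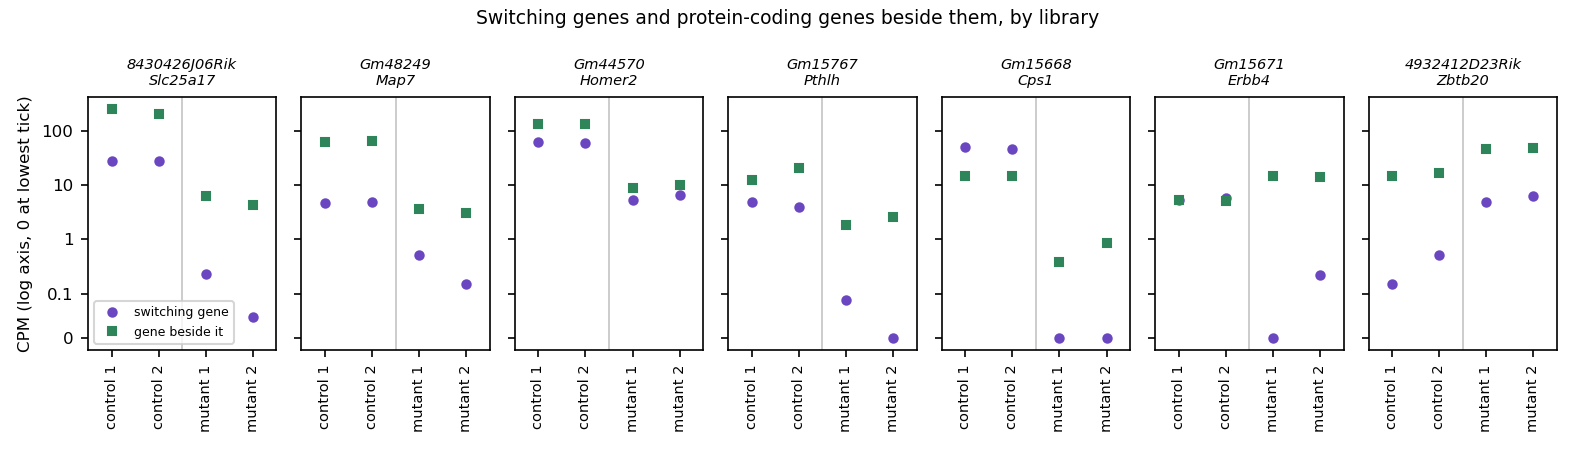
CPM in each of the 4 libraries, on a log axis with 0 at the lowest tick, for 7 switching genes (circles) and the protein-coding gene beside each (squares). In the panels of Slc25a17, Map7, Homer2, Pthlh and Cps1 both genes are lower in the mutants, in that of Erbb4 the neighbour is higher while Gm15671 is lower, and in that of Zbtb20 both are higher. The panels were chosen among neighbours that passed the test. Gm28845 and Tuba1b also passed and are not shown, and Cps1 lies 17941 bases from Gm15668, beyond 10 kb.

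Counted over all neighbours within 10 kb, 9 genes passed the edgeR test, and 3 did so without control 1 and 3 without control 2. Beside the lower genes 10 of 17 neighbours were tested, 5 fell (*Slc25a17*, *Map7*, *Homer2*, *Pthlh* and *Gm28845*) and 2 rose (*Erbb4* and *Gm47181*), with a median log2 fold change of -1.94. Beside the higher genes 19 of 39 neighbours were tested, 2 rose (*Zbtb20* and *Tuba1b*) and 0 fell, with a median of 0.13. At an unadjusted edgeR p under 0.05 1 of them was lower, and 1 in DESeq2 after adjustment, *Adamts17* beside *Gm44609* in both (edgeR log2 fold change -1.95, adjusted p = 0.0648). Over all tested genes 1.77% rose and 1.98% fell, and the median log2 fold change was 0.05. Of the neighbours that passed, *Homer2*, *Map7*, *Gm28845* and *Tuba1b* share 525, 332, 383 and 426 exon bases with the member beside them. Reads in those bases may be the ones by which the member was chosen. Nothing is therefore read from these counts and medians against the values over all tested genes.

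The remaining lower genes, with no neighbour within 10 kb that passed the test, were long non-coding RNAs for the most part. *Gm12506*, 5853 bases from *Gm12511*, had 10 and 11 counts in the controls and 0 in both mutants and was not tested. *Gm29992*, 185 bases from *Gm50097*, was at 0.263 and 0.558 CPM in the controls, against 0.941 and 1.65 CPM in the mutants. It did not pass (log2 fold change 1.59, edgeR adjusted p = 0.257). *1700057H21Rik* had 752 and 904 counts in the controls and 1 in each mutant, a pooled ratio of 851 (counting interval from 235 to 7035). RSEM gave it 70 and 63 counts in the controls, so it was lower there too but below 3 CPM. *Gm30564* was at 32 and 29.9 CPM in the controls, against 2.30 and 1.96 CPM in the mutants, 14.6-fold lower. *Gm12784* was at 16.7 and 18.4 CPM in the controls, against 0.188 and 0 CPM in the mutants, 186-fold lower. *Gm50097* had 389 and 455 counts in the controls, against 2 and 5 in the mutants. *Gm15931*, a pseudogene close to the leukocyte receptor gene *Lilra6* in sequence, was the only copied lower gene, with 281 and 556 counts in the controls and 0 in both mutants, at least 289.9-fold lower. *Gm12511* and *Gm46411* were lower as well and met the rule with RSEM. The higher genes not yet described are *Gm9825*, *Gm7879*, *Gm3226*, *Gm46427* and *4930515G01Rik*, and all 5 met the rule with RSEM.

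The deposited countings did not give the same members. With RSEM 15 of the 29 higher genes met the thresholds, and 9 of the 18 lower genes did. A further 10 higher and 6 lower genes had groups apart in the same direction but fell under a threshold. RSEM gave 0 counts in all libraries to *Gm13736*, *Gm44166*, *Gm49450*, *Gm44570* and *Gm48249*, overlapping groups to *Gm43694* and the opposite direction to *Gm47179*. Of the copied higher genes 9 of 22 met the rule with RSEM, and of the higher genes without a copy 6 of 7. Of the lower genes without a copy 9 of 17 met it, and the 1 copied lower gene did not. Among all predicted and Riken genes RSEM by itself gave 21 higher and 11 lower genes, of which 15 and 9 are members.

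**Figure D5:**
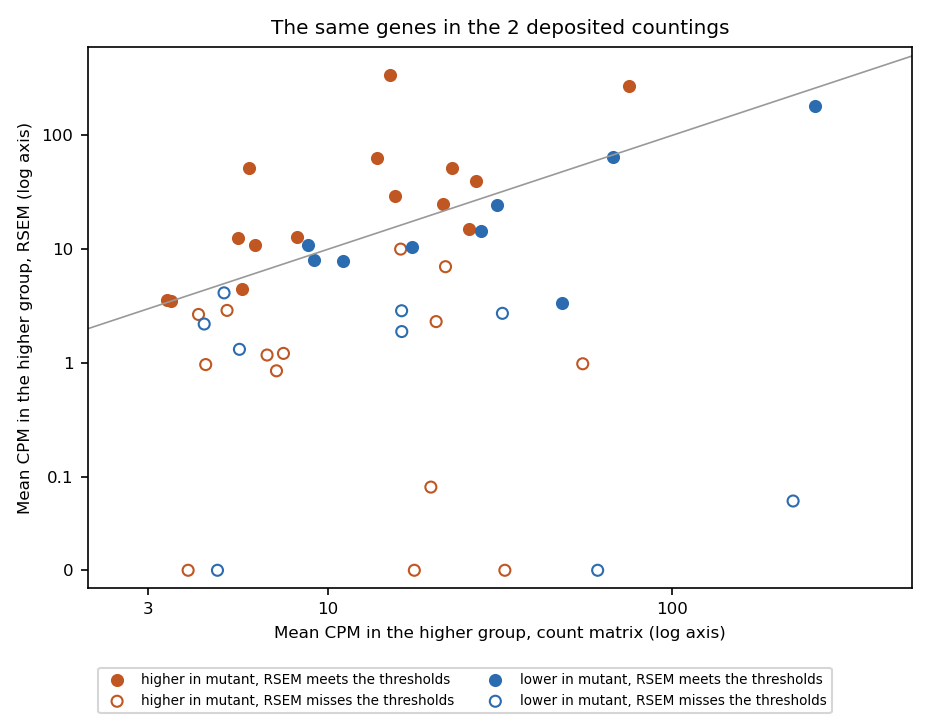
Mean CPM of each member in its higher group in the count matrix (horizontal, log axis) and in the RSEM table (vertical, log axis, 0 at the lowest tick), with filled points for genes that meet the thresholds in both and a line of equal values. The filled points lie on both sides of the line, 5 genes lie at 0 on the RSEM axis, and Gm28363 and Gm47179 lie just above them. Orange points are higher and blue points lower in the mutants.

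Per length, on the TPM scale of the RSEM tables, the higher genes had a median of 0.355 in the controls and 16.5 in the mutants, and the lower genes had 12.7 and 0.16. Over the 1233 predicted and Riken genes at 3 CPM the medians were 4.50 and 3.77. The higher genes had a median length of 1119 bases and the lower genes of 1137 bases, close to 1134 bases over the 1233. The higher genes lay on 12 chromosomes and the lower genes on 10, with no more than 5 on any of them.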

How the data were processed

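Oocyte RNA of 2 control and 2 mutant libraries was measured by Smart-Seq2. The authors deposited a matrix of raw read counts per gene for all libraries, with its counter and strand setting not given in the sources used here. Per library the authors deposited RSEM tables with expected counts, which divide reads that fit several genes, and TPM values (abundance corrected for length and depth), made per the submitters' processing notes with cutadapt 1.16, STAR and RSEM on mm10. The FPKM and length columns were not used for a test. Columns of other samples numbered 0.

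CPM was computed from the matrix. The members and gene lists were chosen with earlier results of these data known. All genes were fitted with edgeR 4.0.16 in R 4.3.3 (quasi-likelihood test, TMM scaling, filterByExpr, no block, Benjamini-Hochberg adjustment). The SE beside an edgeR log2 fold change is its absolute value divided by the square root of the quasi-likelihood F statistic. It was derived in this way and is not an edgeR output. DESeq2 1.42.0 was an alternative. The scripts were tested on simulated data. Of 55335 gene IDs 55154 matched GENCODE M21, which gave coordinates, types and transcripts on GRCm38 (mm10). Transcripts were compared with megablast (BLAST 2.17.0, word size 20, hits of at least 50 bases). Copies in the genome that GENCODE does not annotate were not searched. Counting intervals are at 95% and floors are 3 counts over a group (0.058 CPM in the controls and 0.0564 CPM in the mutants), and both cover counting error only, since reads without molecular identifiers are not independent molecules. Start regions came from RefSeq.

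Values in each library are given for the 10 members of each direction with the highest mean CPM in their higher group, for members overlapping or within 10 kb of a gene past the edgeR threshold, for members that miss the rule with RSEM, for members within 100 kb of each other and for those at the limit of 8. All other members are named with their direction. Python 3.11.15 with pandas 2.3.3 and NumPy 2.4.6 was used for the rest.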

Additional observations from a re-analysis of the deposited data

How the results depend on the processing

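The higher set held 29 genes, and 46 with a minimum of 1 CPM, 13 with 10 CPM and 30 to 44 with 1 library left out. The lower set held 18 genes, and 11 with RSEM counts, 28 with a fold of 4, 32 with a minimum of 1 CPM and 19 to 25 with 1 library left out. With TMM scaling the sets held 28 and 21 genes. Over all genes 274 passed as higher, against 978 in DESeq2, 749 without the filter on low counts and 10 to 962 with 1 library left out. As lower 307 passed, against 908, 573 and 12 to 726 in the same order and 197 on library totals without TMM. The replicate block gave 730 higher and 483 lower genes. Deviations from the group mean had a correlation of 0.176 between samples with the same number and -0.176 between crossed samples. With 2 libraries a group these are 1 value by construction, so they show no agreement between pairs. The labels do not say what a number marks, so the samples were not treated as paired. Of the genes beside members 9 passed, 5 with overlap alone, 11 with the replicate block and 3 to 12 with 1 library left out, 3 without either control. Of the lower members 0 were copied at an identity of 98% and 2 at 90%, and of the higher members 20 and 24. The log2 ratio of Gm47179 was 2.98 with RSEM. Summed with copies, a setting chosen after seeing the data, Gm10184 came to -0.48, Gm13736 to -0.47 and Gm3608 to -0.41, and 19 of the other members moved by more than the spread. With RSEM 27 members moved by more than the spread. For copies and neighbours, 31 calls were lost and 24 gained over all alternatives, and 372 values stayed on the same side of the threshold. The causes of these changes were not tested. With 2 libraries a group, depth limits what the genes near 0 can show to the floor of 3 counts.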
